A study of Mus musculus with 4 samples.

Results

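The 35 genes described here are interferon response genes: genes whose transcription rises in most cell types when an interferon binds its receptor. They were taken by name from a fixed list, as the non-control probes carrying these gene names on an Agilent mouse array. All 35 were on the array, with 47 probes, and all 35 were among the 25296 genes tested. The samples were whole kidneys of female BALB/C mice, an inbred laboratory strain, in a model of membranous nephropathy (MN), in which immune deposits form under the podocytes of the glomerulus. MN mice (2 arrays) and control mice (2 arrays) were both first immunized at 6 weeks of age with 0.2 mg of cationic bovine serum albumin (cBSA) in complete Freund's adjuvant. From 2 weeks later the MN mice received 13 mg/kg cBSA intravenously 3 times a week for 6 weeks. The control mice received saline, which the labels also call PBS, on that schedule. The controls were therefore primed with antigen and adjuvant too, and unimmunized kidneys were not analysed here. Whether the arrays were separate animals is not given by the labels, so a p-value here reflects only how these samples spread, and part of that may be technical.

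Type I interferons (the alpha family and interferon beta) and type III interferons signal through JAK1 and TYK2 to a complex that holds STAT2 and IRF9 and binds the interferon-stimulated response element (ISRE). Type II interferon, interferon gamma, is made mainly by T and NK cells; it signals through JAK1 and JAK2 to the gamma-activated site (GAS). In the kidney, interferon response genes are known to be raised in lupus nephritis and in viral infection. BALB/C and many other laboratory strains carry damaged Mx genes, and the RefSeq table lists Mx1 and Mx2 as transcribed pseudogenes.

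Values are log2 of the background-subtracted signal minus the array's own 75th percentile, so a negative level lies below that percentile, and a difference of 1 between MN and control is a 2-fold difference. Levels of different probes cannot be set against each other. The arrays lay on 2 slides, each holding 1 MN and 1 control array, and slide, scan and replicate number coincided. Between 63.1% and 79.5% of non-control spots were well above background, with the highest share on control array 2, and no spot was saturated. Over all genes the median difference was -0.05, with 38.6% of genes positive. Of all genes, 5 were higher in MN at an adjusted p under 0.05 and none was lower, by limma's test. With the slide as a block 0 genes passed, although 3879 had an unadjusted p under 0.05. Kidney markers of the proximal tubule (7 of 7), podocytes (5 of 5) and the loop, distal tubule and collecting duct (6 of 6) were all well above background on all 4 arrays.

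None of the 35 interferon response genes passed the test in either direction. Over all genes tested, 0.0198% passed higher in MN and 0% lower. The smallest adjusted p of a member was 0.293, for Ifitm7. Of the 35, 12 had a positive and 23 a negative difference, and their median was -0.09. The share of negative differences was 65.7% among the members and 61.4% over all genes. At an unadjusted p under 0.05 there was 1 member higher in MN, Oas2, where 3.54% of all genes were, and 1 lower, Ifitm7, where 3.49% were. Both MN arrays lay above both control arrays for 4 members (11.4%, against 13.2% of all genes). Both lay below for 10 members (28.6%, against 19.9% of all genes), and the groups overlapped for the other 21. The differences were small: 27 of 35 were under 0.25 in size, as were 69.5% of all genes. The data also bound them from both sides, since the 95% interval lay within -1 to 1 for 31 of 35 members, against 71.3% of all genes; the exceptions were Ifitm7, Ifitm1, Iigp1 and Ifi44. In whole-kidney RNA, fewer cells of a type and less RNA per cell cannot be told apart.

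**Figure D1:**
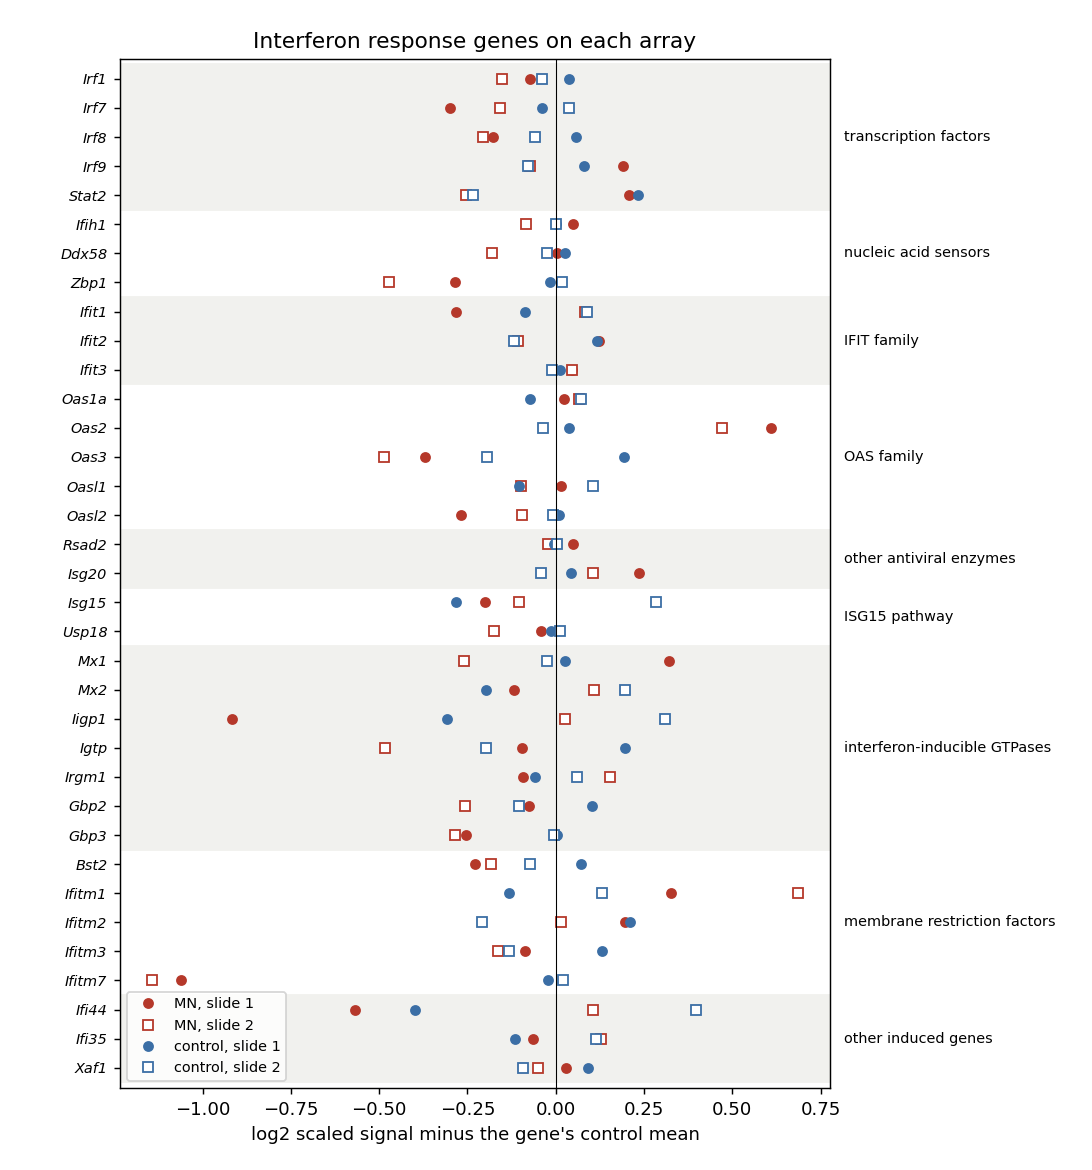
Each row is 1 interferon response gene, grouped by role, and each point is 1 array: the horizontal axis gives the log2 scaled signal minus that gene's control mean, with MN in red, control in blue, slide 1 as filled circles and slide 2 as open squares. The 2 MN points of Ifitm7 stand about 1 to the left of its control points, those of Oas2 stand to the right, and in 21 rows the groups overlap.

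Among the transcription factors, the 4 negative differences belonged to Irf7, Irf8, Irf1 and Stat2, and Irf9 was positive. Irf7, which amplifies type I interferon production, had -2.17 and -2.03 on MN arrays 1 and 2, against -1.91 and -1.84 on control arrays 1 and 2. Both MN arrays were the lower ones, by 0.26 on slide 1 and 0.20 on slide 2. The difference was -0.23 ± 0.14 (SE) with an adjusted p of 0.953. Irf8, needed for dendritic cell and monocyte development, had 1.48 and 1.45 on the MN arrays, against 1.71 and 1.60 on the control arrays. The groups did not overlap, and the difference was -0.19 ± 0.14. Irf1, the gamma-induced factor that itself activates many guanylate-binding protein genes, had 1.77 and 1.69 in MN, against 1.88 and 1.81 in control, a difference of -0.11 ± 0.14. Its second probe gave a difference of the opposite sign, 0.34, but was not well above background on any array, so it has no measured direction. Stat2 and Irf9 encode parts of the ISRE-binding complex. Stat2 had 1.52 and 1.06 in MN, against 1.54 and 1.08 in control. Its levels followed the slide and not the group: the slides differed by 0.46 in size and the groups by 0.02. Irf9 averaged 1.53 ± 0.19 in MN and 1.47 ± 0.11 in control (SD, n = 2 each).

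The 3 nucleic acid sensors were all negative, and only Zbp1 was set apart by array. Zbp1, a sensor of left-handed nucleic acid that can trigger necroptosis, had -1.10 and -1.29 in MN, against -0.83 and -0.80 in control. Both MN arrays were below both control arrays. The difference was -0.38 ± 0.15, with a 95% interval of -0.79 to 0.03 and an adjusted p of 0.759. Its second probe was well above background on neither MN array and on both control arrays. With MN raised to at least the lowest signal well above background, the control level by this probe was 1.36-fold higher. That bound leaves out the spread between arrays. Ifih1 and Ddx58 encode MDA5 and RIG-I, the cytosolic sensors of viral RNA. Ifih1 had 0.65 and 0.51 in MN, against 0.60 and 0.60 in control, a difference of -0.02 ± 0.14. A second, dim Ifih1 probe, well above background on 1 of 2 MN arrays, gave -0.86. Ddx58 differed by -0.09 ± 0.15, and its second probe by -0.03.

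The genes of the IFIT proteins, which bind foreign RNA, are among the strongest type I interferon targets, and their transcripts differed little between groups. Ifit1 had -1.42 and -1.05 in MN, against -1.22 and -1.05 in control. Ifit2 had -0.87 and -1.10 in MN, against -0.87 and -1.11 in control. Ifit3 had 1.05 and 1.05 in MN, against 1.01 and 0.99 in control. The differences were -0.10 ± 0.19, 0.01 ± 0.18 and 0.05 ± 0.13, in that order. Ifit1 and Ifit2 overlapped, while both MN arrays of Ifit3 exceeded both control arrays by no more than 0.06 within a slide. Rsad2, encoding viperin, gave 0.59 and 0.52 in MN, against 0.54 and 0.55 in control, a difference of 0.01 ± 0.13 with an interval of -0.36 to 0.38. Isg20, a nuclease that degrades single-stranded RNA, had 1.004 and 0.87 in MN, against 0.81 and 0.72 in control. The MN arrays were the higher ones, by both probes (differences of 0.17 and 0.19), with an adjusted p of 0.9999.

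Isg15 encodes a ubiquitin-like modifier and Usp18 the protease that removes it. Isg15 had 1.31 and 1.40 in MN, against 1.22 and 1.79 in control. The 2 control arrays were the lowest and the highest of the 4, so the sign depended on the slide: 0.08 on slide 1 and -0.39 on slide 2. Its brighter probe shares 20 or more bases with a probe named Gm9706, so the signal may not be of Isg15 alone. Usp18 differed by -0.11 ± 0.14, with both MN arrays below both control arrays.

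The oligoadenylate synthetases make the second messenger that activates RNase L, and this family held differences of both signs. Oas2 had -0.81 and -0.95 in MN, against -1.38 and -1.46 in control. Both MN arrays were above both control arrays, by 0.57 on slide 1 and 0.51 on slide 2. The difference was 0.54 ± 0.14, with an interval of 0.14 to 0.94, an unadjusted p of 0.0192 and an adjusted p of 0.552. Oas3 was dim: neither MN array had it well above background, at -5.05 and -5.16, and both control arrays did, at -4.48 and -4.87. By the lowest signal well above background, its control level was at least 1.25-fold higher, with an adjusted p of 0.823 for its difference. Oas1a had 1.41 and 1.45 in MN, against 1.31 and 1.46 in control, and its 2 probes gave 0.04 and -0.01. Of the synthetase-like relatives, Oasl1 differed by -0.04 ± 0.16 and Oasl2 by -0.18 ± 0.14. The 5 members together had a median of -0.04.

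Of the 7 interferon-inducible GTPases, 5 were negative and 2 positive, with a median of -0.17. This class includes the immunity-related GTPases and guanylate-binding proteins, which attack vacuoles that hold intracellular parasites and are driven mostly by interferon gamma. Iigp1 had -1.39 and -0.44 in MN, against -0.78 and -0.16 in control. On each slide the MN array was the lower one, by 0.61 and 0.28, but the slides differed by more (0.78), so the groups overlapped. The difference was -0.45 ± 0.42, with an interval from -1.61 to 0.72, the widest among the members. A second Iigp1 probe gave -0.90, with no overlap: -3.44 and -3.02 in MN, against -2.28 and -2.38 in control. Igtp had 1.89 and 1.498 in MN, against 2.18 and 1.79 in control, lower in MN by 0.29 on both slides and overlapping across them. Gbp3 had 2.76 and 2.73 in MN, against 3.02 and 3.01 in control. It was the tightest of the negative members, with a difference of -0.27 ± 0.13 and an adjusted p of 0.854. Gbp2 differed by -0.17 ± 0.16. Irgm1 gave 0.03 by its brighter probe and -0.01 by the other. Mx1, well above background on 1 of 2 MN arrays, had -4.34 and -4.92 in MN, against -4.64 and -4.69 in control. Mx2 differed by -0.01 ± 0.21.

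**Figure D2:**
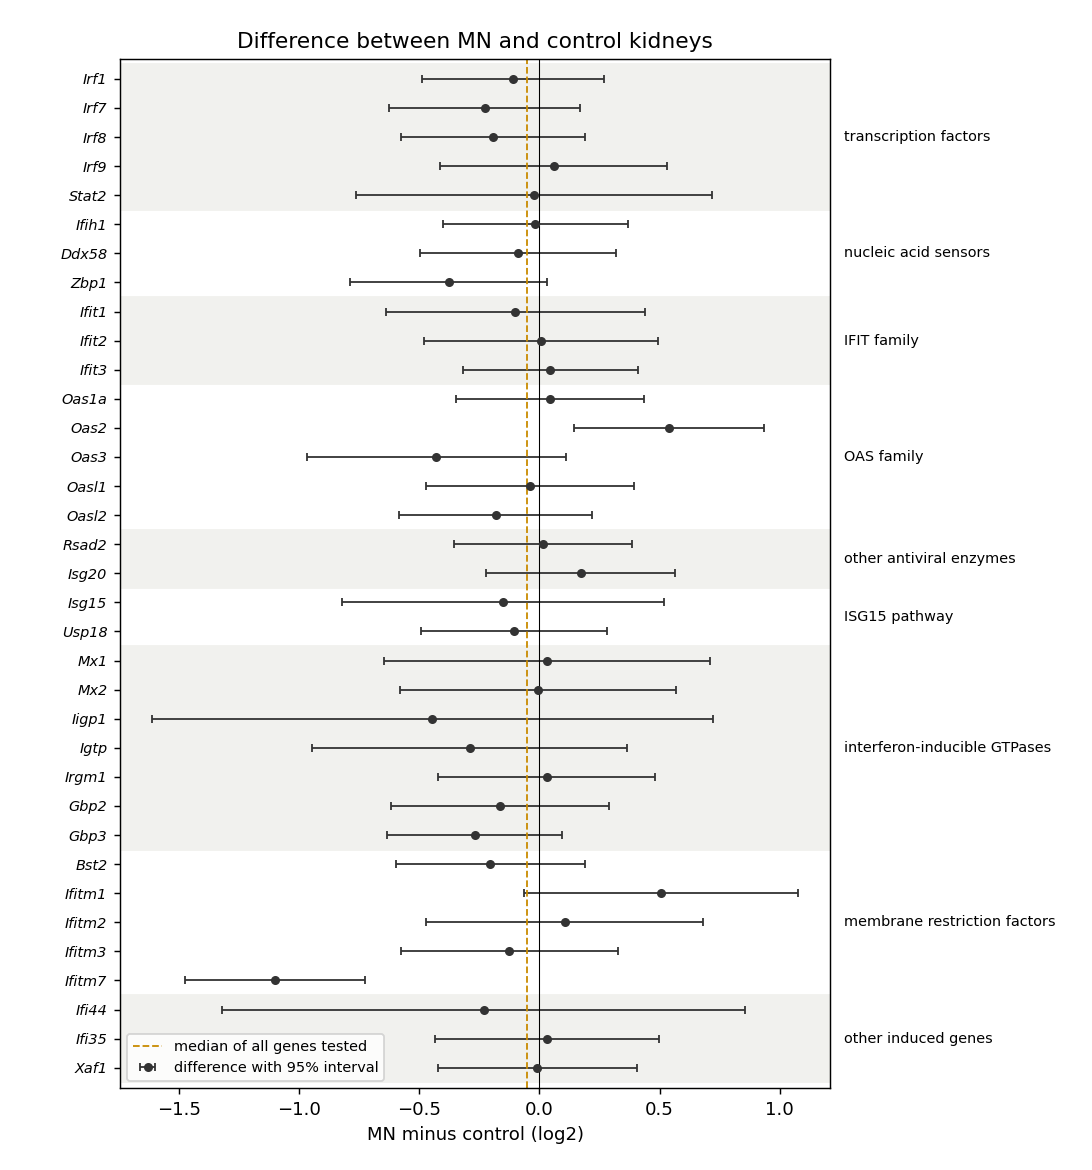
Points give MN minus control on the log2 scale for each of the 35 genes by role, bars the 95% interval of limma's fit, and the dashed line the median of all genes tested (-0.05). The intervals of 2 genes leave out 0, Ifitm7 on the negative side and Oas2 on the positive side, both at unadjusted p.

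Of the 5 membrane-bound restriction factors, 3 were negative and 2 positive. Bst2, or tetherin, retains budding virus at the cell surface; it had 1.82 and 1.87 in MN, against 2.12 and 1.98 in control, a difference of -0.21 ± 0.14 without overlap. The IFITM proteins hinder the fusion of virus with endosomal membranes. Ifitm3 differed by -0.12 ± 0.16 and Ifitm2 by 0.10 ± 0.21, both with overlap. The Ifitm2 probe shares 20 or more bases with 3 probes of other names, so it may not report that gene alone. Ifitm1 had 0.95 and 1.31 in MN, against 0.49 and 0.75 in control. The lowest MN array was above the highest control array, and the difference was 0.46 on slide 1 and 0.55 on slide 2. Over both slides it was 0.51 ± 0.21, with an interval of -0.06 to 1.08 and an adjusted p of 0.775. Its second probe gave 0.53, but the probes are not independent: their sequences, shown because the pair otherwise looks like a repeat measurement, overlap by the 54 bases in capitals. They lie at chr7:148155658-148155717 and chr7:148155659-148155718, plus strand, mm9.
Ifitm1, probe at 148155658: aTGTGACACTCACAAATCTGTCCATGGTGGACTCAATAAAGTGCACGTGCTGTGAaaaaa
Ifitm1, probe at 148155659: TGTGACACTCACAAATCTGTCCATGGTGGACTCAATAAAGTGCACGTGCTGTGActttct

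Ifitm7 gave the largest difference of the 35, and its probes did not agree in size. By the brighter probe it had 5.36 and 5.28 in MN, against 6.40 and 6.44 in control. Both MN arrays were about 1 below both control arrays, with -1.04 on slide 1 and -1.16 on slide 2. The difference was -1.10 ± 0.13 (SE), with an interval of -1.48 to -0.73, an unadjusted p of 0.00124 and an adjusted p of 0.293. The other probe had 1.32 and 1.04 in MN, against 1.43 and 1.24 in control, a difference of -0.15, and the mean of the 2 probes differed by -0.63. That dimmer probe shares 20 or more bases with a probe named Gal3st2, so its signal may not be of Ifitm7 alone. The 2 probe sequences are shown because they differ in one feature. The bright probe, at chr16:13982912-13982971 (minus strand, mm9), ends in an alternating run of G and T of 30 bases, in capitals. The other, at chr16:13981795-13981854 (minus strand, mm9), has none. The same run stands in probes of Trim25, a ubiquitin ligase that activates RIG-I (chr11:88874956-88881181, plus strand, mm9, spanning genomic sequence that is not in the probe), and of Sp110, a nuclear body protein (chr1:87473677-87473736, minus strand, mm9). The macrophage integrin gene Itgam has a probe with the complementary run of C and A (chr7:135261755-135261814, plus strand, mm9).
Ifitm7, bright probe: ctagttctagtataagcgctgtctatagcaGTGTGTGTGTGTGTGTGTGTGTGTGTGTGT
Ifitm7, other probe: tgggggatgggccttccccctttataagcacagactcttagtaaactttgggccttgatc
Trim25, bright probe: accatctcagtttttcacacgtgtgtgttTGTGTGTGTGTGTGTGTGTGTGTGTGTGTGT
Sp110, bright probe: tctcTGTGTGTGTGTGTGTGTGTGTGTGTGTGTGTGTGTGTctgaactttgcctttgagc
Itgam, bright probe: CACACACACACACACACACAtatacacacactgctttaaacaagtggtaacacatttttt

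Probes with such runs of 15 bases or more had differences of 1 sign within each class across the whole array, whatever gene they were named for. The run classes were looked up after the Ifitm7 values were seen, TG first and CA second, so their values are given as a description with no test. All 52 probes with an alternating TG run of 20 bases or more had a negative difference, between -1.43 and -0.40 with a median of -0.92, and both MN arrays lay below both control arrays for 44 of them (84.6%, against 17.6% of all non-control probes). All 24 probes with a CA run of that length had a positive difference, between 0.81 and 1.30 with a median of 1.06, and both MN arrays lay above both control arrays for 23 (95.8%, against 18.4%). Every probe of both classes was well above background on all 4 arrays. Of probes with a TG run of 15 to 19 bases, 27 of 27 were negative (median -1.06) and 17 of 17 with a CA run of that length were positive (median 0.92). Runs of 10 to 14 bases held both signs: 90 of 110 TG probes were negative and 20 positive (median -0.41, up to 1.23), and 48 of 60 CA probes were positive and 12 negative (median 0.23, down to -0.48). The median over all non-control probes was -0.05. The TG class differed on both slides (medians of -0.80 and -1.04), as did the CA class (1.14 and 0.92). The Ifitm7 bright probe shares a stretch of 20 bases with 51 other probes. Its difference of -1.10 lay inside the range of its run class. No TG or CA run in the other 46 member probes was longer than 7 bases. With all probes of either run class left out, a choice made after seeing the data, Ifitm7 had a difference of -0.15, the smallest adjusted p of a member was 0.579, and 12 members remained positive.

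**Figure D3:**
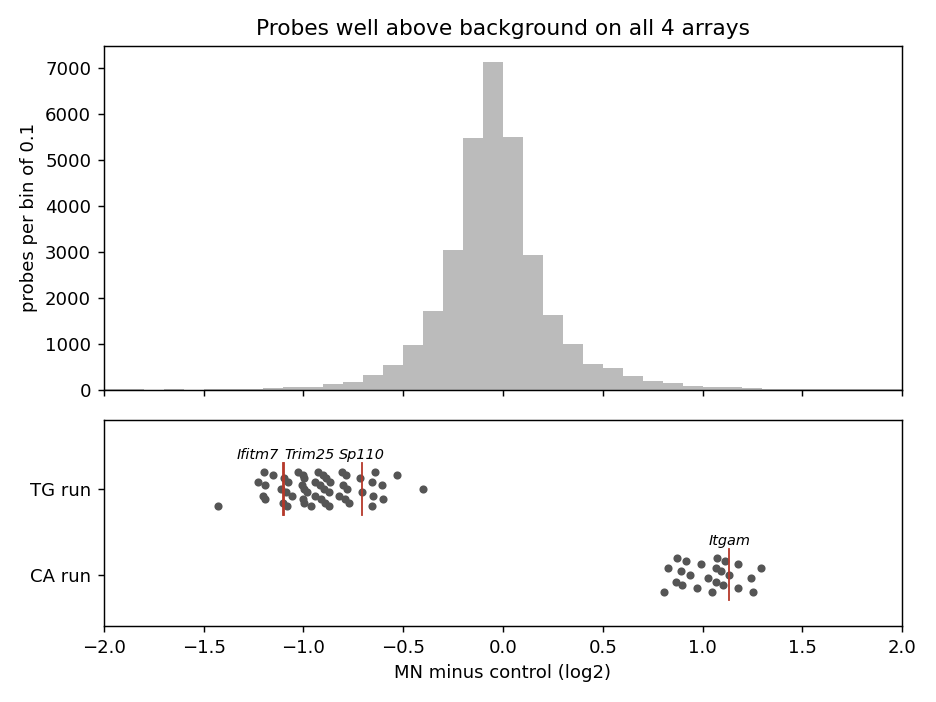
The upper panel counts the 32627 probes well above background on all 4 arrays by MN minus control (log2, bins of 0.1, with 2 probes below -2 and 29 above 2 outside the axis), and in the lower panel each point is 1 probe with a TG run or a CA run of 20 bases or more, spread vertically only to avoid overlap. All 52 TG-run probes lie left of 0 and all 24 CA-run probes right of it, with Ifitm7, Trim25, Sp110 and Itgam marked.

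The remaining members, Ifi44, Ifi35 and Xaf1, did not differ beyond the spread between arrays. Ifi44, a cytoplasmic protein induced by type I interferon, had -0.09 and 0.59 in MN, against 0.08 and 0.88 in control. Slide 2 was higher in both groups, and the slides differed by 0.74, against -0.23 ± 0.39 between groups. Ifi35 differed by 0.03 ± 0.17. Xaf1, which antagonizes an inhibitor of apoptosis, differed by -0.01 ± 0.15 by its brighter probe. Its dim second probe gave -0.40.

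The difference between slides exceeded that between groups, in size, for 21 of the 35 members and for 60.9% of all genes. Within slides, 18 members were negative on both (51.4%, against 40.1% of all genes), 7 were positive on both (against 23.2%), and 10 changed sign. With the slide as a block, an unadjusted p under 0.05 was reached by Oas2 and Ifitm1, higher in MN (6.29% of all genes), and by Zbp1, Oas3, Iigp1 and Ifitm7, lower in MN (9.05% of all genes). None of them passed after adjustment, and the smallest adjusted p of a member was 0.170.

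**Figure D4:**
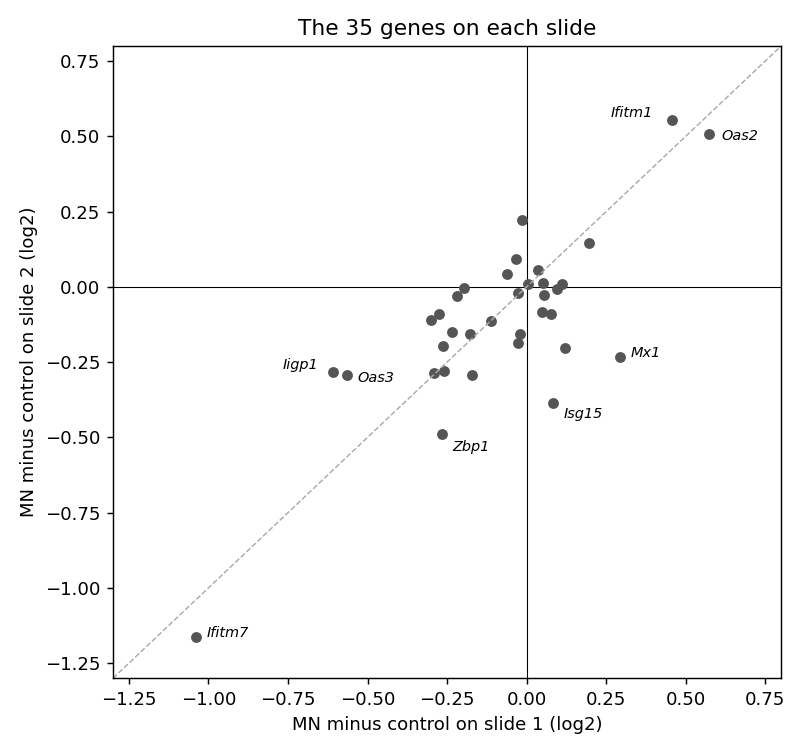
Each of the 35 points is 1 gene, with MN minus control (log2) on slide 1 across and on slide 2 upwards; the dashed diagonal marks equal differences on both. Ifitm7 lies near -1 on both slides and Oas2 and Ifitm1 near 0.5, while Isg15 and Mx1 lie in the quadrant of opposite signs.

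Of 134 other genes of the pathway, 123 were on the array and 115 were tested. None passed the test, 38 were positive and 77 negative, where 61.4% of all genes were negative, and their median was -0.07. At an unadjusted p under 0.05 there were 0 higher and 4 lower in MN, where 3.54% and 3.49% of all genes were. The 4 included Trim25 by its TG-run probe. Of the 21 ligand genes, 13 were tested and 9 of them were well above background on all 4 arrays. Their differences were positive for 3 and negative for 10, with a median of -0.18. Interferon gamma (Ifng) had -4.88 and -5.47 in MN, well above background on 1 array, against -4.48 and -4.79 in control, on both; the difference was -0.54 ± 0.27. Interferon beta (Ifnb1) did not pass the filter on dim probes. Ifna4 and Ifna11 were well above background on neither MN array and on both control arrays. The lowest signal well above background was higher on each MN array than on either control array. With MN raised to that signal, the Ifna11 control level was at least 1.27-fold higher. For Ifna4 the raised MN level lay above the control level, by 0.26 in log2, so no control excess was bounded. The other alpha interferons ran from -0.45 for Ifna16 through -0.39 for Ifna12, -0.33 for Ifna7, -0.12 for Ifna5, -0.12 for Ifnab and -0.09 for Ifna1 to 0.04 for Ifna2, Ifna13 and Ifna14. These genes are near-identical copies, so which of them a probe reports is uncertain. The type III ligand gene Ifnl3 gave -0.18 ± 0.20.

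The machinery between ligand and target differed little. The receptor subunit genes were measured well, with differences of 0.01 for Ifnar1, -0.02 for Ifnar2, 0.04 for Ifngr1, -0.15 for Ifngr2, -0.13 for Ifnlr1 and 0.04 for Il10rb, and SEs between 0.14 and 0.31. Jak1 differed by -0.07 ± 0.22, Jak2 by -0.06 ± 0.13 and Tyk2 by 0.16 ± 0.57, the last with slides far apart and an interval of -1.42 to 1.75. Stat3 gave -0.11 ± 0.16. Among the inhibitors, Trim24 (-0.19), Socs1 (-0.16), Socs3 (-0.12) and Ptpn11 (0.06) had the largest differences. Socs1 and Socs3 are feedback inhibitors of the receptor kinases.

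Of 13 tested genes of sensing and induction, 5 were positive and 8 negative. Trim25 had the largest difference, -1.10 ± 0.16 (adjusted p 0.345), by the TG-run probe shown above: 5.51 and 5.33 in MN, against 6.43 and 6.61 in control. Its other probe gave -0.30. Tlr8, a receptor for single-stranded RNA that was well above background on 1 of 2 MN arrays, gave -0.43 ± 0.37. Among the 12 genes well above background on all 4 arrays, Tlr3 (-0.37), a receptor for double-stranded RNA, the kinase Ikbke (0.26) and the adaptor Myd88 (-0.20) came after Trim25. Of 42 further type I targets, 17 were positive and 25 negative, with a median of -0.04. Sp110 led them at -0.71 ± 0.29, again by a TG-run probe, while its 3 other probes gave -0.32, 0.02 and 0.01. Ifit1bl1, a relative of Ifit1, had -3.94 and -3.89 in MN, against -3.27 and -3.23 in control, without overlap. Its difference was -0.67 ± 0.13 with an adjusted p of 0.428. Ifi27l2b (-0.35) and Ube2l6 (0.31), the conjugating enzyme for ISG15, came next.

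Of 30 further type II targets, 8 were positive and 22 negative, with a median of -0.11. Ciita, the master regulator of MHC class II genes, had -2.95 and -3.18 in MN, against -3.45 and -4.19 in control, a difference of 0.75 ± 0.30 with an adjusted p of 0.775. With another background correction (normexp) the Ciita difference was 0.33. Tgtp2, a gamma-induced GTPase, had 2.33 and 2.17 in MN, against 2.87 and 2.94 in control. Its difference was -0.66 ± 0.14 (adjusted p 0.468). Its second probe was well above background on 1 array of each group and was not tested, so it has no measured direction. Tap1 (-0.52), a peptide transporter subunit, and Gbp7 (-0.33) followed. The chemokine genes that mark interferon gamma exposure lay close to 0 or varied with the slide: Cxcl10 gave 0.00 ± 0.15, Cxcl9 -0.15 ± 0.31 and Cxcl11 0.20 ± 0.79. These 3 were named after their values were seen.

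**Figure D5:**
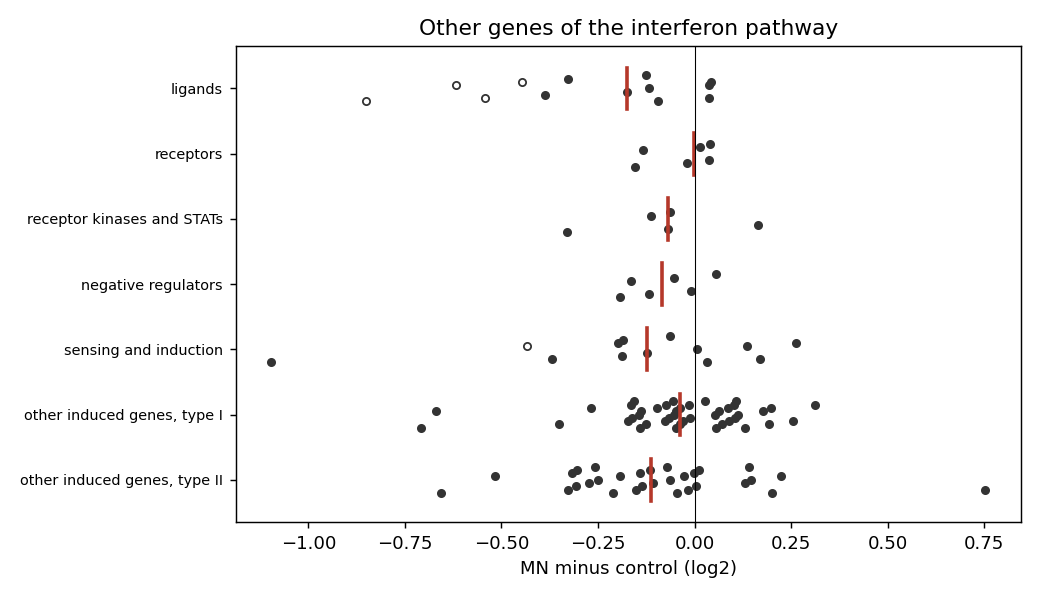
Each point is 1 of the 115 tested pathway genes outside the 35 members, by group, placed by MN minus control (log2) and spread vertically only to avoid overlap; open points are genes not well above background on all 4 arrays, and red bars are group medians. The group medians lie between -0.18 for the ligands and -0.0020 for the receptors, and the far-left point of sensing and induction is Trim25.

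Markers of immune cells were read beside these genes, and none passed the test. Of 12 tested T and NK cell markers, 11 were negative, with a median of -0.18 and a summed scaled signal of 8.38 and 11.6 in MN, against 9.58 and 12.7 in control. The NK cell markers Klrb1c and Ncr1 did not pass the filter on dim probes. Of 4 plasmacytoid dendritic cell markers, 3 were negative, with a median of -0.07 and sums of 31.8 and 109 in MN, against 29.3 and 95.2 in control. The largest part of each of these sums was a Siglech probe with a difference of 0.34. The other Siglech probes gave -0.46 and 0.06. Of 11 macrophage and monocyte markers, 8 were positive, with a median of 0.24 and sums of 31.97 and 33.7 in MN, against 31.1 and 31.1 in control. The largest of these, Itgam at 1.13, came from the CA-run probe shown above, and its other probes gave -0.19 and -0.21. The higher macrophage sums in MN rest on the CA-run probe, at 2.16 and 2.99 in MN, against 0.98 and 1.90 in control. Of 5 dendritic cell markers, 3 were negative, with a median of -0.21 and sums of 0.781 and 0.715 in MN, against 0.777 and 0.886 in control. Cd209a gave -0.84 ± 0.16 and Zbtb46 -0.70 ± 0.24, both with an unadjusted p under 0.05 by limma, as had 3.49% of all genes lower in MN. The neutrophil and podocyte lists each held 3 markers at that p, higher in MN. A second, dim Zbtb46 probe gave -0.04, and the dendritic cell markers Clec9a (0.27) and Itgax (0.10) were positive. Of 6 B cell markers, 5 were negative, with a median of -0.16 and sums of 1.57 and 1.59 in MN, against 1.77 and 1.74 in control. Of 8 neutrophil markers, 7 were positive, with a median of 0.55 and sums of 63.8 and 70.1 in MN, against 45.1 and 57.6 in control, and S100a8 was the largest at 1.49 ± 0.14 (adjusted p 0.202). Most of the summed neutrophil signal was Csf3r, at 5.88 and 5.99 in MN, against 5.38 and 5.73 in control. Of 6 plasma cell markers, 5 were positive, with a median of 0.51 and sums of 44.3 and 39.1 in MN, against 36.1 and 34.2 in control. Jchain, the joining chain of polymeric antibodies, led them at 3.23 ± 0.15 (adjusted p 0.0665). Most of the summed plasma cell signal was Xbp1, with a difference of 0.18. Outside the immune cells, the markers of erythroid cells (4 of 4 positive, median 0.61), podocytes (4 of 5, median 0.60) and adipocytes (4 of 6) were mostly positive too. The adipocyte markers Adipoq and Cfd were the only 2 on these lists to pass the test, higher in MN (adjusted p 0.0460 for both), with Adipoq well above background on neither control array and Cfd on 1. The part of these cells in the values of the 35 genes was not tested.

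Promoters were searched for both response elements in RefSeq windows from 250 bases before to 50 bases after each start (GRCm38.p6). The ISRE was taken as its core of paired GAAA blocks with any 2 bases between them, or paired TTTC blocks on the other strand, and the GAS as TTC and GAA with any 3 bases between them, which reads the same on both strands. Windows existed for 29 of the 35 members, and not for Mx1, Mx2, Oas2, Iigp1, Zbp1 and Usp18. The ISRE letters stood in those of 16 members (55.2%), against 3.99% of all genes with a window, and the GAS letters in 9 (31.0%), against 9.55%. The motifs overlapped each other in 2 member windows. The stretches that follow are shown, with matches in capitals, because many of the members, though not all, hold these letters. The genes were listed as induced by interferon, which acts through these elements, so the higher shares are not independent of that choice. A match is not a mapped binding site. Isg15, Ifit1, Ifit3, Oas3 and Gbp3 show the ISRE, and Irf1 and Irf8 the GAS. They lie at chr4:156200856-156200915 (minus), chr19:34640769-34640828 (plus), chr19:34583365-34583424 (plus), chr5:120777700-120777759 (minus), chr3:142559977-142560036 (plus), chr11:53769898-53769957 (plus) and chr8:120736170-120736229 (plus).
Isg15: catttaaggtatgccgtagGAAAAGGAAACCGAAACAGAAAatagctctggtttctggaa
Ifit1: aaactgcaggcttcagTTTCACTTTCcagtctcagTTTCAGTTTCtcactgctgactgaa
Ifit3: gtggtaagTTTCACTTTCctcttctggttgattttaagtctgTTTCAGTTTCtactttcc
Oas3: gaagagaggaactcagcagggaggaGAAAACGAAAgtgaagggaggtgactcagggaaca
Gbp3: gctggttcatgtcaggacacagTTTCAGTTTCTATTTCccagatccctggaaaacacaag
Irf1: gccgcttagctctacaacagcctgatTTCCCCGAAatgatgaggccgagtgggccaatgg
Irf8: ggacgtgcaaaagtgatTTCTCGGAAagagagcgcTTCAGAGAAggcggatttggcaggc

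Members with and without an ISRE match lay close together. The 16 with one had a median difference of -0.09 (5 positive, 11 negative, from -0.43 to 0.10). The 13 without one had a median of -0.04 (5 positive, 8 negative, from -1.10 to 0.51). Isg15, with 3 overlapping ISRE matches, differed by -0.15, and Ifit1 and Ifit3, with 2 matches each, by -0.10 and 0.05. The 9 members with a GAS match had a median of -0.11. Ifitm1 and Ifitm7, at the ends of the range over the 29 members with a window, had neither motif. Ifitm7 was at the low end by its TG-run probe, and its other probe gave -0.15. Oas2, at 0.54 above Ifitm1, had no window.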

How the data were processed

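Total kidney RNA (0.2 µg per sample, per the labels' protocols) was hybridized to 1-colour Agilent arrays. The authors deposited linear spot intensity values from the scanner. Feature Extraction 10.5.1.1 had subtracted background and given dim spots surrogate values, per the file headers, which also place the probes on mm9. How the log2 values of the deposited series table were made is not given in these sources. They matched scaled log2 signal minus the control mean, with the columns of replicates 1 and 2 exchanged in both groups; which order is right is unknown, and group means do not depend on it.

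Control spots and non-uniform spots were left out, spots of a probe averaged, and the 75th percentile of each array subtracted from log2 of the processed signal. Probes entered the test when both arrays of a group had them well above background, and the brightest tested probe stood for its gene. The test was limma 3.58.1 (R 4.3.3), two-sided and without a block, on 25296 genes with Benjamini-Hochberg adjustment and a threshold of 0.05; residual df were 2. Deviations of same-numbered arrays correlated at 0.63, and the numbers coincide with slides per the file headers, so blocked and within-slide values are given. A bound was set by raising lower signals of the undetected group to each array's lowest signal well above background. It takes no account of the spread between arrays. The scripts were tested on simulated data. Tables and figures used Python 3.11.15, pandas 2.3.3 and matplotlib 3.10.9.

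Genes described in full were the 8 members with the largest absolute difference, members with non-overlapping groups differing by at least 0.5, and members with probes of opposite sign. Of the other pathway genes they were every tested ligand, receptor, kinase and STAT, and up to 4 per other group with the largest difference among genes well above background on all 4 arrays; 1 gene of these is not reported here. The other members named by array, Tlr8 and the named markers were added after their values were seen. The members, the lists and these rules were chosen with earlier results of these data known. Alternatives were normexp background correction (offset 50), quantile or median scaling, values from the deposited table, dropping or tightening the filter, the mean of a gene's probes, a trended variance, a replicate block and leaving out each array.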

Additional observations from a re-analysis of the deposited data

How the results depend on the processing

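No interferon response gene and no other pathway gene passed the threshold under any of the 14 alternatives run. Over these, the smallest adjusted p of a member was 0.170 at the lowest, with the replicate block, the members' median ranged from -0.11 to -0.045 (the upper end from the deposited table) and the number positive from 9 to 15. The count of all genes higher in MN was 5 in the fit reported; it was 15 with normexp, 20 with quantile normalization, 11 with median scaling, 11 with the deposited table and 16 with a trended variance. It was 0 by limma with no filter (1805 genes at an unadjusted p under 0.05), with the stricter filter (1529), with the replicate block (3879) and with any 1 array left out (905 to 1429). The median of the other pathway genes moved to -0.093 with normexp, -0.055 with quantile normalization, -0.051 with median scaling, -0.11 with the mean of a gene's probes and between -0.090 and -0.073 with 1 array left out. The cause was not tested. The deposited table is centred on the control mean, so the brightest probe there was the one with the highest MN minus control difference. This held for every gene with more than 1 tested probe. The members' median and the count of 11 from that table therefore rest on probes picked by the difference itself. Another probe stood for Ifitm7 there (-0.16), and the mean of its probes gave -0.63.

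The sign held in every alternative for 16 members, among them Ifitm7, Oas2, Ifitm1, Oas3, Zbp1, Igtp and Gbp3, and turned in at least 1 for 19. Leaving out 1 array moved 9 of the 16 by over 1.5 times: the ranges were -0.62 to -0.24 for Oas3, -0.49 to -0.093 for Igtp, 0.33 to 0.69 for Ifitm1, -0.15 to -0.073 for Irf1, -0.27 to -0.097 for Oasl2, 0.10 to 0.24 for Isg20, -0.17 to -0.041 for Usp18, -0.27 to -0.063 for Gbp2 and -0.28 to -0.13 for Bst2. With normexp, Ifit2 gave -0.021, Oas1a -0.011, Rsad2 -0.014, Mx1 -0.15 and Mx2 0.021. Mx2 also turned with quantile normalization (0.018) and median scaling (0.0085), as did Xaf1 with median scaling (0.0045). With 1 array left out in turn, differences ran from -0.072 to 0.19 for Irf9, -0.26 to 0.21 for Stat2, -0.083 to 0.049 for Ifih1, -0.18 to 0.0033 for Ddx58, -0.28 to 0.083 for Ifit1, -0.11 to 0.12 for Ifit2, -0.029 to 0.12 for Oas1a, -0.15 to 0.064 for Oasl1 and -0.022 to 0.050 for Rsad2. They ran from -0.43 to 0.13 for Isg15, -0.26 to 0.32 for Mx1, -0.20 to 0.19 for Mx2, -0.92 to 0.025 for Iigp1, -0.092 to 0.15 for Irgm1, -0.10 to 0.31 for Ifitm2, -0.26 to 0.0072 for Ifitm3, -0.63 to 0.17 for Ifi44, -0.082 to 0.15 for Ifi35 and -0.10 to 0.082 for Xaf1. The number of arrays (4) limits the precision, and dim probes (Oas3, Mx1 and 4 of the 13 ligands tested, Ifng, Ifna4, Ifna11 and Ifna16) limit it further.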
